A study of Mus musculus with 2 samples.

Results

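The genes described here are the integrin and cadherin genes, chosen by symbol alone: Itga and Itgb genes for integrin alpha and beta chains, and numbered Cdh genes, with Cdh5 left out. The rule found 48 genes among 32286 features, made up of 18 integrin alpha genes, 8 integrin beta genes and 22 cadherin genes. Each was followed in endothelial cells of mouse lung in 2 single-cell libraries, labelled aWT and aKO. Both came from C57BL/6J mice 10 to 12 weeks old. In both, VE-cadherin-cre, a recombinase under an endothelial cadherin promoter, had switched on the red protein tdTomato, and red cells of the dispersed lung were sorted. The series title names a model of hereditary hemorrhagic telangiectasia 2, a disorder of blood vessels linked to the gene for the BMP receptor ALK1, ACVRL1. The sample labels name no deleted allele and no treatment, and whether a library pooled animals is not given in the sources used here. Each group had 1 library, so the difference between groups has no replicate check and no test, and it is described by size alone.

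Integrins are receptors made of 1 alpha and 1 beta chain that hold cells to the extracellular matrix or to other cells. The alpha chain largely sets the ligand: alpha1 and alpha2 bind collagens, alpha3, alpha6 and alpha7 bind laminins of the basement membrane, and alpha5, alpha8 and alphav bind RGD-bearing proteins such as fibronectin and vitronectin. Cadherins are calcium-dependent adhesion proteins that mostly bind the same kind of cadherin on the next cell and are tied to actin through catenins. Lung endothelium comprises general capillary cells, the large thin aerocytes that face the alveolar epithelium, and arterial, venous and lymphatic cells.

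Itga1 and Itga2 lie next to each other on chromosome 13 and were both lower in aKO in venous-like and lymphatic-like cells, and Itgb1 encodes the chain that both pair with. The 250 bases before the annotated start of these 3 genes are therefore shown, from RefSeq on GRCm38.p6, 5' to 3' on the gene's strand. Capitals mark matches, on either strand, to 4 motifs: GGCGCC, known as a SMAD1/5 site of BMP target genes, CAGAC, a general SMAD site, AGGAAG, an ETS site, and GGGCGG, a GC box.
Itga1, chr13:115101965-115102214, minus strand: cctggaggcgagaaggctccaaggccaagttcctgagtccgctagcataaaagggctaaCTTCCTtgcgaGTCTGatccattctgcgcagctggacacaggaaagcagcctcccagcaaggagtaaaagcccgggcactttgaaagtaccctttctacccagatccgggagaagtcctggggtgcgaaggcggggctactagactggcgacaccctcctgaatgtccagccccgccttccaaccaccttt
Itga2, chr13:114932101-114932350, minus strand: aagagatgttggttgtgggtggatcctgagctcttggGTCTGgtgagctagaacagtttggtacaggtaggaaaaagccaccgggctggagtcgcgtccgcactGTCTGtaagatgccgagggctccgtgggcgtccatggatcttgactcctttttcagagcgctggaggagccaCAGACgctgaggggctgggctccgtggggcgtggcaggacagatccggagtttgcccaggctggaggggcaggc
Itgb1, chr8:128685404-128685653, plus strand: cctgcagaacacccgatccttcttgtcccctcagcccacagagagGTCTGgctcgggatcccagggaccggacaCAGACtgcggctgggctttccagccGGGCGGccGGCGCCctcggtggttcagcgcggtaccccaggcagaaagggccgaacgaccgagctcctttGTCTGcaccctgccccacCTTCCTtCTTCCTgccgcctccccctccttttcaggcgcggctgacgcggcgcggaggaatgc
Itga1 had 1 CAGAC and 1 AGGAAG, Itga2 had 3 CAGAC, and Itgb1 had 1 GGCGCC, 3 CAGAC, 2 AGGAAG and 1 GGGCGG. Of 32851 promoters of this length, 9.59% held GGCGCC, 42.2% CAGAC, 29.5% AGGAAG and 32.7% GGGCGG, so the CAGAC and AGGAAG matches are common ones. Among the 31 members with a promoter entry, Itgb1 alone held GGCGCC. These matches are letters in a window and say nothing about binding.

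The deposited matrices held 72270260 UMIs (unique molecular identifiers, each counting 1 captured RNA molecule) in 15996 aWT barcodes and 75950364 UMIs in 11045 aKO barcodes. After filters and doublet removal 13895 aWT and 9951 aKO endothelial cells remained, with median UMI counts of 4039 and 5911. Marker UMIs, none of them from a member, put 6755 and 3680 cells in the general capillary-like class, 2343 and 1059 in the aerocyte-like, 1247 and 983 in the arterial-like, 1304 and 976 in the venous-like and 466 and 1598 in the lymphatic-like class (aWT first). The libraries stood apart in ways other than the label: Xist was at 3.60 CPM (counts per 1000000 UMIs) in aWT but 726 CPM in the aKO library, so sex and label cannot be told apart. Acvrl1 was 1030 and 489 CPM, and Cdh5, the cadherin left out, was 2008 and 852 CPM. Where any Acvrl1 deletion lies relative to the 3' reads is not known here, so this does not check the label. Of the cell barcodes kept, 40 occurred in both libraries. The general capillary markers summed to less in aKO in each class, from 7398 to 4008 CPM in general capillary-like, 2237 to 713 in arterial-like, 2167 to 1432 in venous-like, 931 to 736 in aerocyte-like and 885 to 792 CPM in lymphatic-like cells. Their part in the results below was not tested.

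In lung endothelium as a whole, collagen-binding alpha chains were lower in aKO and a laminin-binding alpha chain, 2 beta chains and T-cadherin were higher. From aWT to aKO, Itga1 went from 1126 to 324 CPM, Itga6 from 462 to 977 CPM, and Cdh13 from 119 to 525 CPM. A member was called lower or higher at 1.5-fold on the log2 ratio of aKO to aWT, both with 5 CPM added, with at least 10 CPM in 1 library. By that rule 3 of 13 measured members were lower (Itga1, Itga2 and Itgb5) and 5 were higher (Itga6, Itga9, Itgb3, Itgb4 and Cdh13). Of all 9603 features measured there, 6.14% were lower and 12.0% higher. The median log2 ratio was 0.20 for the members and 0.09 for all features. The make-up of the libraries differed, with lymphatic-like cells at 3.35% of aWT and 16.1% of aKO endothelial cells. With the 5 classes given equal weight, 1 member stayed lower (Itga1) and 3 stayed higher (Itga6, Itgb4 and Cdh13), so the classes are taken one at a time.

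Within each class most measured members stayed within 1.5-fold. General capillary-like cells had 1 of 10 measured members lower and 3 higher, against 5.89% and 9.48% of all features. In aerocyte-like cells 1 of 11 was lower and 3 were higher, against 4.35% and 6.26%. Arterial-like cells had 1 of 14 lower and 5 higher, against 8.97% and 11.8%. Venous-like cells had 2 of 15 lower and 4 higher, against 8.78% and 14.8%. In lymphatic-like cells 3 of 14 were lower and 0 higher, against 5.41% and 5.68%. The members' median log2 ratio lay between -0.04 and 0.09 in each class, and that of all features between 0.03 and 0.09. Some called members reached 10 CPM only in the library where they were higher: Cdh13 in general capillary-like and aerocyte-like cells, Cdh23 in aerocyte-like, Cdh11 and Itgb3 in arterial-like and Cdh2 and Cdh26 in venous-like cells in aKO, and Itga2 and Itga8 in lymphatic-like cells in aWT. The counts are therefore descriptions only.

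**Figure D1:**
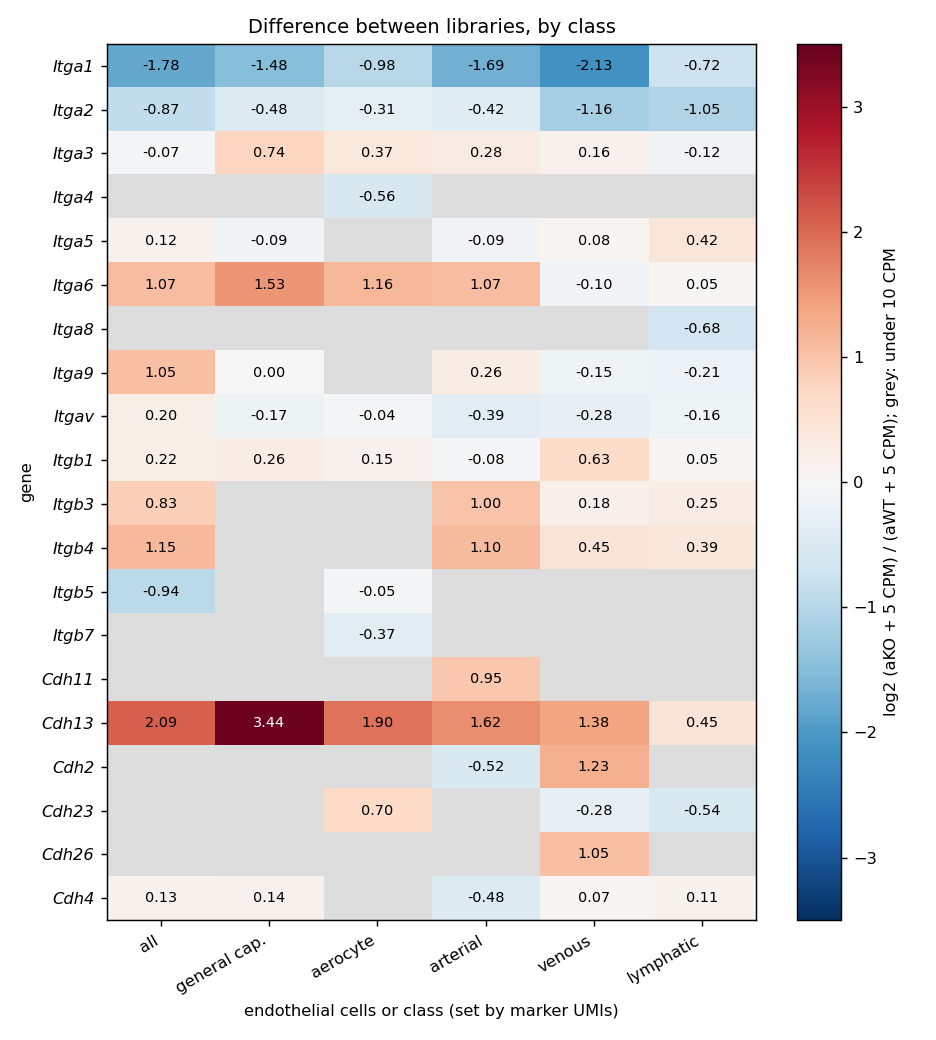
Log2 ratio of aKO to aWT, both with 5 CPM added, for the 20 members that reached 10 CPM in 1 library in 1 class or more (rows) in all endothelial cells and in each class (columns). Blue is lower and red is higher in aKO, and grey cells were under 10 CPM in both libraries. The Itga1 row is blue throughout, from -0.72 in lymphatic-like to -2.13 in venous-like cells, and the darkest red cell is Cdh13 in general capillary-like cells at 3.44.

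The collagen-binding alpha chains were led by Itga1 (chr13:114953096-115101964, minus strand, GRCm38), which encodes the alpha chain of the collagen IV receptor alpha1beta1. It was the member with the most UMIs in aWT endothelium and was lower in aKO in all 5 classes. Of the 7 members measured in all 5 classes it alone was lower in each, where 1.02% of 7949 features measured in all 5 were, and 0 members were higher in each (0.893% of features). Its level in general capillary-like cells was 1616 CPM in aWT (95% Poisson interval 1601 to 1631) and 576 CPM in aKO (565 to 586), a log2 ratio of -1.48. In venous-like cells it went from 934 to 210 CPM (log2 ratio -2.13), in arterial-like cells from 707 to 216 CPM (-1.69) and in aerocyte-like cells from 423 to 213 CPM (-0.98). The smallest difference was in lymphatic-like cells, 242 against 145 CPM (-0.72), and there the ratio was -0.57, under the 1.5-fold size, when each cell was given equal weight. The general capillary markers summed to less in aKO in all 5 classes, as given above, but not every marker was lower. The highest single marker of that list was at 915 CPM (aWT) and 1022 CPM (aKO) in venous-like cells. In lymphatic-like cells it was at 392 and 547 CPM. In venous-like cells the venous markers summed to 6471 CPM (aWT) and 4168 CPM (aKO), and the median depth was 5724.5 and 10605.5 UMIs. The part of these differences in the Itga1 result and in the other venous-like results was not tested.

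Itga1 was lower by both the level and the number of cells that carried it. With cells thinned to 2000 UMIs each, 92.3% of general capillary-like cells had an Itga1 UMI in aWT (95% Clopper-Pearson interval 91.6 to 93.0) and 62.8% in aKO (61.2 to 64.5). Before thinning these shares were 96.1% and 83.0%. In venous-like cells the thinned share went from 75.4% to 33.8% and in arterial-like cells from 65.4% to 31.6%. Alveolar type 2-like cells, which are epithelial, had an Itga1 UMI in 12.5% of 64 thinned aWT cells (5.55 to 23.2). They are used here and below as a rough measure of free RNA, though whether they make these genes themselves was not tested. Their median depth before thinning was 14394 UMIs. Every class share of Itga1 in aWT lay above that interval, the lowest being 31.1% in lymphatic-like cells. In aKO 0 of 12 alveolar type 2-like cells had one, with an upper bound of 26.5%, and the lymphatic-like share of 22.2% lay within it.

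Itga2 (chr13:114833081-114932100, minus strand), the alpha chain of the collagen receptor alpha2beta1, was lower in fewer classes. Its level was 115 CPM (aWT) and 48.5 CPM (aKO) in venous-like cells, a log2 ratio of -1.16. In lymphatic-like cells it went from 15.1 to 4.68 CPM (-1.05), which rests on 40 and 60 UMIs and shrank to -0.31 with doublet calls kept. General capillary-like cells, at 203 and 145 CPM (-0.48), aerocyte-like cells, at 214 and 172 CPM (-0.31), and arterial-like cells, at 105 and 76.7 CPM (-0.42), stayed within 1.5-fold, though all 5 ratios were below 0. On thinned cells the arterial-like ratio was -0.76. In aWT the highest classes, aerocyte-like and general capillary-like, could not be ordered, because their counting intervals overlapped. The other collagen-binding chains, Itga10 and Itga11, stayed under 10 CPM in every class.

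The 2 collagen receptor genes are neighbours, 21 kb apart and on the same strand, and other genes of the region were measured with them. Pelo, which encodes a ribosome rescue factor and lies within Itga1 on the same strand, was 65.8 CPM (aWT) and 48.2 CPM (aKO) in endothelial cells, a log2 ratio of -0.41. How reads in that stretch were divided between Pelo and Itga1 is not given in the sources used here. Its part in the values of the 2 genes was not tested. Mocs2, next to Itga2, and Ndufs4, farther along, each had a ratio of 0.01. Both integrin genes were at least 1.5-fold lower in all endothelial cells and these 3 genes were not, but Itga2 was not called with classes weighted equally (-0.52). In general capillary-like cells alone the ratios were -1.48 for Itga1, -0.48 for Itga2, -0.36 for Pelo, 0.37 for Mocs2 and 0.02 for Ndufs4.

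Of the laminin-binding chains, Itga6 was higher in aKO in 3 of 5 classes and Itga3 in 1. Itga6 (chr2:71745616-71858416, plus strand), the alpha chain of alpha6beta1 and alpha6beta4, was 623 CPM in aWT general capillary-like cells (614 to 632) and 1814 CPM in aKO (1796 to 1832). The log2 ratio was 1.53, and the share of thinned cells with an Itga6 UMI went from 65.0% to 93.6%. Arterial-like cells carried 455 and 960 CPM (1.07). Venous-like cells, at 501 and 467 CPM (-0.10), and lymphatic-like cells, at 156 and 162 CPM (0.05), were nearly level. General capillary-like cells held the highest Itga6 level in both libraries.

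Aerocyte-like cells had little Itga6, 40.3 CPM (aWT) and 96.1 CPM (aKO) (log2 ratio 1.16). Their thinned shares with a UMI, 5.32% and 7.89%, were not above those of alveolar type 2-like cells (7.81% of 64 cells, 2.59 to 17.3, and 8.33% of 12 cells, 0.21 to 38.5), so no difference is read from them. The level in alveolar type 2-like cells was 28.3 CPM in aWT and 52.1 CPM in the aKO library, from 26 and 8 UMIs. The part of free RNA in the aerocyte-like call was not tested. With a stricter class rule the aerocyte-like ratio was 0.80, and with a looser one 1.62.

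Itga3 (chr11:95044474-95076801, minus strand), whose product also pairs with beta1 on laminins, was chiefly an aerocyte-like gene. Its level there was 319 CPM (aWT) and 414 CPM (aKO) (log2 ratio 0.37), and 61.4 and 106 CPM in general capillary-like cells (0.74). The aerocyte-like level was 4.88 times that of the next class in aWT and 3.77 times in aKO, on values with 5 CPM added. In arterial-like, venous-like and lymphatic-like cells the ratios lay between -0.12 and 0.28. Itga7, the third laminin-binding chain, stayed under 10 CPM in every class.

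Side by side, Itga1 had more UMIs than Itga6 in aWT general capillary-like, arterial-like and venous-like cells, and Itga6 had more in aKO. These are UMIs from transcript 3' ends, so a molecule gives 1 count whatever its length, but capture can differ between genes. For each Itga1 UMI, general capillary-like cells had 0.386 Itga6 UMIs in aWT and 3.15 in aKO. In arterial-like cells the values were 0.643 and 4.44, in venous-like cells 0.537 and 2.23, in aerocyte-like cells 0.0952 and 0.452, and in lymphatic-like cells 0.646 and 1.12. Of all alpha chain UMIs in general capillary-like cells, Itga1 made up 59.6% in aWT and 20.4% in aKO, and Itga6 23.0% and 64.2%. In lymphatic-like cells the largest share was that of Itga9, at 50.5% and 51.0%.

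**Figure D2:**
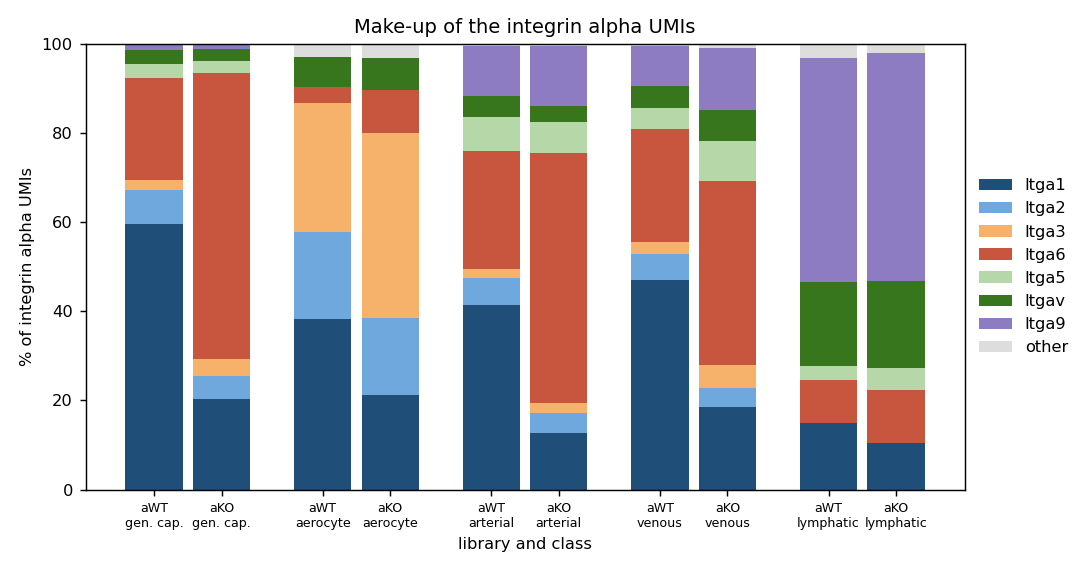
Share of each integrin alpha gene among all integrin alpha UMIs (y axis, percent) in each class of the aWT and aKO libraries (x axis, paired bars). In general capillary-like cells Itga1 takes 59.6% of the aWT bar and 20.4% of the aKO bar, while the 2 lymphatic-like bars differ little and are led by Itga9.

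The same cells were then counted by which of the 2 genes they carried. Among thinned general capillary-like cells, 59.9% of aWT and 59.1% of aKO cells carried UMIs of both genes. Cells with Itga1 alone were 32.5% in aWT and 3.74% in aKO, and cells with Itga6 alone 5.13% and 34.5%. In arterial-like cells Itga6 alone went from 14.4% to 40.9%, and in venous-like cells from 12.9% to 35.4% although the Itga6 level there was nearly level. At 2000 UMIs per cell, a cell without a UMI of a gene need not lack its RNA. These shares also depend on the share of cells with each gene taken alone. In general capillary-like cells those were 92.3% and 62.8% for Itga1 and 65.0% and 93.6% for Itga6 (aWT first). Whether the 2 genes occurred together more or less often than those shares imply was not tested.

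**Figure D3:**
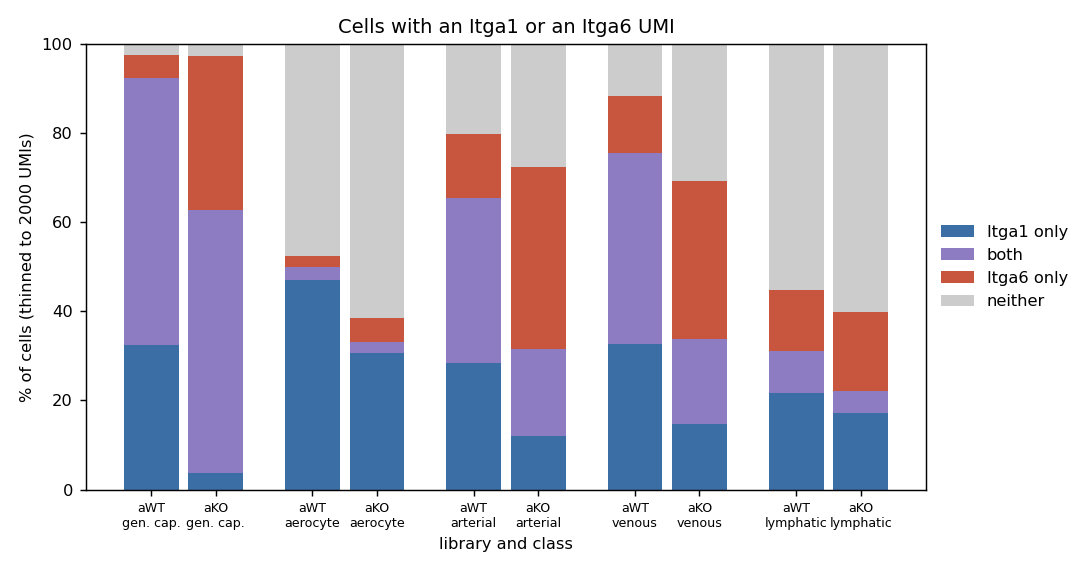
Share of cells, each thinned to 2000 UMIs (y axis, percent), with an Itga1 UMI only, UMIs of both genes, an Itga6 UMI only or neither, by class and library (x axis). The general capillary-like bars show a band with both genes of nearly the same height (59.9% and 59.1%), and the Itga1-only band of aWT (32.5%) stands against an Itga6-only band of similar height in aKO (34.5%).

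Itga5, Itgav and Itga9 stayed within 1.5-fold in every class where they were measured. Itga5 (chr15:103344286-103366763, minus strand), the fibronectin receptor chain, was highest in arterial-like cells, 130 CPM (aWT) and 121 CPM (aKO), and its ratios lay between -0.09 and 0.42 in the 4 classes where it was measured. Itgav (chr2:83724397-83806916, plus strand), the vitronectin receptor chain, was highest in lymphatic-like cells, 303 and 270 CPM, with ratios between -0.39 and -0.04 in the 5 classes. Itga9 (chr9:118606690-118901003, plus strand), an alpha chain needed for lymphatic valves, was 815 CPM (aWT) and 702 CPM (aKO) in lymphatic-like cells, or 4.12 and 2.98 times the next class, arterial-like, with 5 CPM added to each value. No class reached 1.5-fold for Itga9, although all endothelial cells together gave 99.4 and 212 CPM (log2 ratio 1.05). That ratio was -0.11 with classes weighted equally.

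The remaining measured alpha chains were low. Itga8 was measured in lymphatic-like cells alone, at 12.8 and 6.08 CPM (log2 ratio -0.68, from 34 and 78 UMIs), and was called lower there. Itga4, whose product binds VCAM1, was measured in aerocyte-like cells alone, at 15.3 and 8.75 CPM (-0.56), and passed 1.5-fold with TMM scaling (-0.62) and with 1 CPM added in place of 5 (-0.74). The 5 alpha chains of leukocyte integrins (Itgad, Itgae, Itgal, Itgam and Itgax) and the platelet chain Itga2b stayed under 10 CPM in every class. Of the leukocyte markers, 8 of 8 in aWT and 7 of 8 in aKO endothelial cells were under 1 CPM (sums 2.21 and 9.35 CPM), as were 6 of 6 platelet markers in both (sums 0.78 and 0.88 CPM).

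Among the beta chains, Itgb1 (chr8:128685654-128733200, plus strand), the partner of most alpha chains above, had the most UMIs and stayed within 1.5-fold in 4 of 5 classes. It made up 98.0% of beta chain UMIs in aWT and 97.9% in aKO general capillary-like cells. Its level there was 720 and 864 CPM (log2 ratio 0.26), and the ratios in aerocyte-like, arterial-like and lymphatic-like cells lay between -0.08 and 0.15. Venous-like cells were the exception, with 829 CPM in aWT (809 to 849) and 1285 CPM in aKO (1265 to 1306), a ratio of 0.63. In the same cells the proliferation markers summed to 77.7 CPM (aWT) and 569 CPM (aKO), and the pericyte and smooth muscle markers to 34.9 and 85.1 CPM. The highest single pericyte and smooth muscle marker was at 14.5 CPM (aWT) and 64.4 CPM (aKO), so that sum is not a difference of the whole list. The part of both marker lists in the Itgb1 result was not tested.

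The other measured beta chains reached 10 CPM in 1 to 3 classes each. Itgb5 (chr16:33829665-33949338, plus strand), a partner of alphav, was an aerocyte-like gene with 231 CPM (aWT) and 223 CPM (aKO) (log2 ratio -0.05). On values with 5 CPM added it was 17.9 times the next class in aWT and 34.6 times in aKO. In all endothelial cells it was 46.1 and 21.7 CPM (-0.94), which became -0.12 with classes weighted equally. Aerocyte-like cells made up 16.9% of aWT and 10.6% of aKO endothelial cells.

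Itgb4 (chr11:115974709-116008412, plus strand), the partner of alpha6 in the laminin receptor alpha6beta4, was 50.7 CPM (aWT) and 114 CPM (aKO) in arterial-like cells, a log2 ratio of 1.10. Venous-like cells had 80.0 and 111 CPM (0.45) and lymphatic-like cells 18.8 and 26.1 CPM (0.39). Where Itga6 was highest, in general capillary-like cells, Itgb4 stayed under 10 CPM at 2.57 and 9.56 CPM. Arterial-like and venous-like levels overlapped within their intervals in aKO, while in aWT the venous-like level was 1.53 times the arterial-like, with 5 CPM added to each.

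Itgb3 (chr11:104608000-104670476, plus strand), the other main partner of alphav, was highest in venous-like cells, 66.3 and 75.8 CPM (log2 ratio 0.18). It was 7.88 CPM (aWT) and 20.7 CPM (aKO) in arterial-like cells (1.00, from 53 and 205 UMIs). Lymphatic-like cells had 39.1 and 47.5 CPM (0.25). Itgb7, known as a lymphocyte chain, was measured in aerocyte-like cells alone, at 16.3 and 11.4 CPM (-0.37). Itgb2, the leukocyte beta chain, and Itgb6 and Itgb8, which activate TGF-beta in epithelium and other cells, stayed under 10 CPM in every class.

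**Figure D4:**
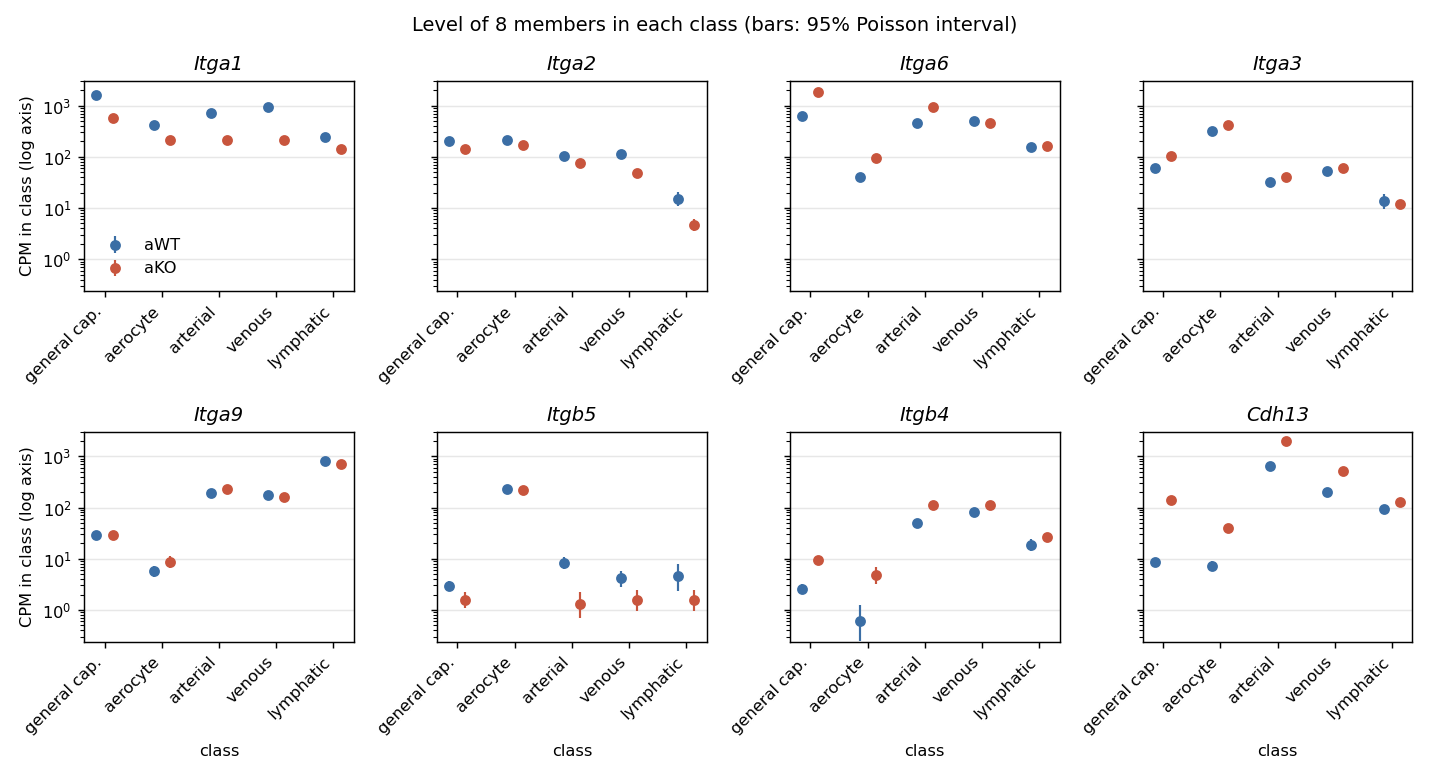
Level in CPM (log axis) of 8 members in the 5 classes (x axis), with aWT in blue and aKO in red and bars for the 95% Poisson interval of the summed count. Red lies below blue for Itga1 in each class, the aerocyte-like peaks of Itga3 and Itgb5 and the lymphatic-like peak of Itga9 nearly coincide, and Cdh13 is red above blue in each class.

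Among the cadherins the largest difference of all members was that of Cdh13 (chr8:118283733-119324921, plus strand), which encodes T-cadherin, a cadherin anchored by a lipid in place of a transmembrane segment and known as a receptor for adiponectin. It was an arterial-like gene in both libraries, with 637 CPM in aWT (618 to 656) and 1974 CPM in aKO (1946 to 2002), a log2 ratio of 1.62. The share of thinned arterial-like cells with a Cdh13 UMI went from 33.2% to 84.6%. Venous-like cells had 199 and 525 CPM (1.38), and lymphatic-like cells 92.6 and 128 CPM (0.45, within 1.5-fold). Among alveolar type 2-like cells 0 of 64 thinned aWT cells had a Cdh13 UMI, with an upper 95% bound of 5.60%, and 1 of 12 aKO cells (8.33%, 0.21 to 38.5). The aWT shares in arterial-like, venous-like and lymphatic-like cells, the lowest being 9.64%, lay above the aWT bound. In aKO the arterial-like and venous-like shares (84.6% and 47.7%) lay above the upper bound there, and the lymphatic-like share (13.7%) did not. In arterial-like cells the arterial markers summed to 3540 and 1998 CPM, the proliferation markers to 40.4 and 211 CPM, and the median depth was 4702 and 9330 UMIs; their part in the arterial-like results was not tested.

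Cdh13 in general capillary-like cells went from 8.65 to 143 CPM, a log2 ratio of 3.44 and a plain ratio of 16.5 (95% counting interval 14.5 to 19.0). Few cells carried it: the thinned share with a UMI was 1.46% in aWT and 8.10% in aKO, and each lies within the bound that the alveolar type 2-like cells of its library allow. In aKO, 178 cells with at least 5 Cdh13 UMIs, 4.84% of the class, held 85.7% of its Cdh13 UMIs. In aWT there were 5 such cells, with 14.6%. The counting interval of the ratio takes UMIs as independent draws and does not cover such clustering in few cells. The 178 cells had a median of 9297 UMIs, against 5168 in the aKO cells of the class with none, though a cut at 5 UMIs favours deeper cells. Their general capillary markers summed to 2134 CPM against 4236 CPM, and their arterial markers to 683 against 567 CPM. Aerocyte (989 against 1266 CPM), venous (269 against 512 CPM) and lymphatic markers (83.0 against 161 CPM) were also lower in the 178 cells. In the 5 aWT cells the arterial markers summed to 880 CPM, against 1441 CPM in aWT cells of the class with none. The ratio was 2.78 with a stricter class rule. Leaving out cells of the class with a UMI of Gja5, Bmx, Dkk2 or Htra1, an alternative chosen after seeing the data, gave 8.0 and 97.3 CPM. The other arterial markers were not used for this exclusion.

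Aerocyte-like cells had 7.15 CPM of Cdh13 in aWT but 40.4 CPM in aKO (log2 ratio 1.90), from 82 and 254 UMIs. That ratio ranged from 1.11 with a stricter class rule to 2.73 with doublet calls kept. The thinned shares, 0.93% and 2.22%, also lie within those bounds. Cdh13 spans 1041 kb, and longer genes lay lower in aKO. Over all 9602 genes with a known span in all endothelial cells, the slope was -0.14 on the log2 scale for each log10 unit of span. By class it was -0.14 in general capillary-like, -0.12 in aerocyte-like, -0.31 in arterial-like, -0.30 in venous-like and -0.11 in lymphatic-like cells. With that trend removed, the Cdh13 ratio in general capillary-like cells was 3.67.

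The classical cadherins were low. Cdh4, R-cadherin, was highest in venous-like cells, 44.0 CPM (aWT) and 46.5 CPM (aKO) (log2 ratio 0.07), and its ratios lay between -0.48 and 0.14 in the 4 classes where it was measured. Cdh2, N-cadherin, which joins endothelium to pericytes, was 9.60 and 29.3 CPM in venous-like cells (1.23, from 77 and 350 UMIs) and 12.5 and 7.18 CPM in arterial-like cells (-0.52). The arterial-like ratio passed as lower with 1 CPM added in place of 5 (-0.72) and with the stricter class rule (-0.81). The class with the highest Cdh2 level was thus arterial-like in aWT and venous-like in aKO, though the 2 classes overlapped within their intervals in aWT. The pericyte and smooth muscle marker sum was higher in aKO in venous-like cells, as given above. In aKO 1 marker gave 64.4 CPM of that sum, and 5 of the 8 markers were under 1 CPM. In aWT the highest marker was at 14.5 CPM, and 4 of the 8 were under 1 CPM. The part of these markers in the Cdh2 result was not tested. Cdh11, a type II cadherin of mesenchyme, was 5.50 and 15.3 CPM in arterial-like cells (0.95, from 37 and 151 UMIs). The fibroblast markers there summed to 18.1 and 22.4 CPM, and their part was not tested.

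Of the other cadherins, Cdh26 was measured in venous-like cells, at 2.37 and 10.2 CPM (log2 ratio 1.05, from 19 and 122 UMIs). Cdh23, known from hair cell tip links, was 5.23 and 11.6 CPM in aerocyte-like cells (0.70), and within 1.5-fold in venous-like and lymphatic-like cells. When each aerocyte-like cell was given equal weight, the Cdh23 ratio was 0.52. Cdh23 overlaps Vsir on the opposite strand, which was 60.8 and 79.8 CPM in endothelial cells. Whether counting used strand is not given in the sources used here, and whether Vsir reads entered the Cdh23 counts was not tested.

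In all, 20 members reached 10 CPM in at least 1 class and 28 did not, 12 integrins and 16 cadherins. The highest of these 28 was 7.08 CPM in a class, and 1, Itgax, had no UMI in endothelial cells. The cadherins among them were Cdh1, Cdh3 and Cdh15 of type I, Cdh6, Cdh7, Cdh8, Cdh9, Cdh10, Cdh12, Cdh18, Cdh19, Cdh20, Cdh22 and Cdh24 of type II, and Cdh16 and Cdh17. Of the 7 members measured in all 5 classes, Itga1 and Itga6 were highest in general capillary-like cells in both libraries, Itga3 in aerocyte-like, Itgav in lymphatic-like and Cdh13 in arterial-like cells. Itga2 (aerocyte-like) and Itgb1 (venous-like) also had the same highest class in both, but its interval overlapped that of the next class in aWT.

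The partners of these receptors were counted from lists that hold no member. Among 36 genes of the integrin adhesome, the proteins at the cytoplasmic side, 32 were measured in all endothelial cells, 2 were lower and 6 higher, with a median log2 ratio of 0.16, beside 6.14% lower and 12.0% higher over all features. Vcl, vinculin, was 610 CPM (aWT) and 354 CPM (aKO) (-0.78). Higher in aKO were Cd81, a tetraspanin (146 and 374 CPM), Zyx, zyxin of focal adhesions (41.9 and 89.4 CPM), and Flna, the actin crosslinker filamin A (36.2 and 79.8 CPM).

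In all endothelial cells, integrin ligands were the partner list with the most genes called higher. Of 25 measured there, 13 were higher and 2 lower (12.0% and 6.14% over all features), with a median log2 ratio of 0.59. Among 19 measured in general capillary-like cells, 8 were higher and 2 lower (9.48% and 5.89% over all features), with a median of 0.37. Venous-like cells had 13 higher and 0 lower of 22 (14.8% and 8.78% over all features). Arterial-like cells had 5 and 4 of 22 (11.8% and 8.97%), and aerocyte-like cells 3 and 2 of 16 (6.26% and 4.35%). In lymphatic-like cells 2 were higher and 2 lower of 24 (5.68% and 5.41%). Lama4, the laminin alpha chain of endothelial basement membranes, was 84.1 and 404 CPM in all endothelial cells and 11.6 and 218 CPM in general capillary-like cells (3.74). Its level in lymphatic-like cells, 1289 and 1134 CPM, was the highest of the 5 classes, and the share of those cells was larger in aKO, as given above. Vcam1, the ligand of alpha4beta1, was 277 and 847 CPM in venous-like cells (1.60). Fn1, fibronectin, was 49.1 and 216 CPM there (2.03), and Emilin1, a ligand of alpha9beta1, 18.4 and 135 CPM (2.58).

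Of the cadherin partners, 10 were measured in all endothelial cells, with a median of -0.15. Of these 2 were lower and 1 higher, beside 6.14% lower and 12.0% higher over all features. In general capillary-like cells none was called in either direction (0 of 10), beside 5.89% lower and 9.48% higher over all features. Ptprb, the phosphatase VE-PTP that acts on VE-cadherin, was 2915 and 1855 CPM in all endothelial cells (-0.65). Jup, plakoglobin, was 401 and 263 CPM (-0.60). Ctnnd1, p120-catenin, at 702 and 481 CPM (-0.54), and Adam10, a protease that cleaves cadherins, at 179 and 244 CPM (0.44), stayed within 1.5-fold.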

How the data were processed

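Sorted lung cells made up 2 libraries, grouped by sample title as aWT and aKO. Values in the deposited matrices are raw UMI counts, whole and not normalized, made by the authors with Cell Ranger 7.2.0 on mm10, per the submitters' processing notes; the 3' v3 chemistry is given per the labels' protocols. Not given in the sources used here are the release of the annotation and the treatment of intronic and antisense reads. The members and lists were chosen with earlier results of these data known.

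Cells needed 500 genes or more and 15% mitochondrial UMIs or less (15651 aWT and 10785 aKO). Scrublet (scanpy 1.11.5, expected rate 6%) called 517 (3.30%) and 349 (3.24%) doublets, which were removed. Endothelial cells carried at least 4 of 8 pan-endothelial markers and fewer than 3 markers of each of 7 lists of other types. The alveolar type 1 list was not used, because genes of it were common in endothelial cells. A cell's class was the list of 8 markers with the highest mean scaled UMIs, with at least 3 markers found and a score at least 1.25 times the next. How markers were combined was set after the data had been seen. No class was given to 1780 aWT (12.8%) and 1655 aKO (16.6%) endothelial cells, and 2214 (15.9%) and 1496 (15.0%) lay near the limit (score ratio 1 to 1.5). Alveolar type 2-like cells (66 and 13) carried at least 5 type 2 and fewer than 4 pan-endothelial markers.

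Counts were summed per class and library and divided by the class total to give CPM. The size rule, the named members (10 CPM in 1 library in 1 class) and up to 4 genes per list, by size of the ratio among those with 50 CPM, are as stated in the results. Poisson and Clopper-Pearson intervals are exact, at 95%, and cover counting error only; 3 UMIs are 0.109 CPM in aWT and 0.142 CPM in aKO general capillary-like cells. Thinning to 2000 UMIs left out 1562 aWT and 1066 aKO endothelial cells. Positions came from GENCODE M21, promoters from RefSeq on GRCm38.p6. On data simulated for all endothelial cells (9285 genes), the size rule recovered 100 of 100 genes made 2-fold higher and 100 of 100 made 2-fold lower, and called 0 unchanged genes. That simulation draws counting error only and no variation between libraries, so it does not bear on the difference between groups. Alternatives were TMM scaling (edgeR 4.0.16), mean over cells, equal class weights, another pseudocount, other minimum CPM, thinning, a stricter cell filter, doublet calls kept, stricter and looser class rules, removal of the trend with gene span and, added after seeing the data, leaving out general capillary-like cells with arterial marker UMIs. Scripts ran in Python 3.11.15 with scipy 1.17.1.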

Additional observations from a re-analysis of the deposited data

How the results depend on the processing

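Of 77 gene and class values, 31 passed the 1.5-fold size rule. The ratio of 24 of these kept that size under every alternative run for them. Other minimum CPM levels change no ratio and are not part of that number. Calls on genes under 50 CPM do not pass that minimum, such as Itgb4 in all endothelial cells (19.3 and 48.8 CPM). The other 7 were lost under at least 1. With the 5 classes weighted equally, the numbers for all endothelial cells went from 3 lower and 5 higher to 1 lower and 3 higher: Itga9 reversed to -0.11, and Itga2 (-0.52), Itgb3 (0.29) and Itgb5 (-0.12) fell under the size. A minimum of 50 CPM left 2 lower and also 3 higher, by its construction. With the mean over cells, Cdh23 in aerocyte-like (0.52) and Itga1 in lymphatic-like cells (-0.57) were lost, and with doublet calls kept, Itga2 in lymphatic-like cells (-0.31); the cause was not tested. In turn 7 uncalled values passed under at least 1 alternative. In general capillary-like cells 1 member was lower under each of 12 alternatives and 3 or 4 were higher. Scaling moved the median of all features little, to 0.05 with TMM and 0.11 with the mean over cells, from 0.09 in all endothelial cells. No paired analysis was possible because each group has 1 library, which also means that no library could be left out. Depth limits the members under 10 CPM, where few UMIs stand behind a class.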

Other observations

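The few epithelial cells of the sort had an adhesion profile of their own. In 66 alveolar type 2-like cells of aWT, Cdh1, E-cadherin, was 269 CPM (95% Poisson interval 237 to 305), and in 13 such cells of aKO it was 287 CPM (208 to 385). In endothelial cells Cdh1 stayed under 10 CPM in every class. Itga9 was 576 CPM in these aWT cells (528 to 628) and 261 CPM in the aKO cells (186 to 355), and 57.8% of 64 thinned aWT cells had an Itga9 UMI (44.8 to 70.1). That level is of the order of the lymphatic-like endothelial level of 815 CPM in aWT. Itgav was 108 and 71.6 CPM, Itgb1 275 and 248 CPM, and Itgb6, the epithelial partner of alphav, 12.0 CPM in aWT from 11 UMIs and 6.51 CPM in aKO from 1 UMI. Cdh16, a cadherin first described in kidney, had 8 and 3 UMIs in these cells. The aKO values rest on few cells, and the alveolar type 2 markers themselves summed to 180 CPM in aWT and 9.58 CPM in aKO endothelial cells.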
